A study of Mus musculus with 9 samples.

Results

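Follistatin (Fst) and 3 genes of insulin-like growth factor binding proteins (Igfbp3, Igfbp4 and Igfbp6) were followed in whole mouse lung after bleomycin, with and without homoharringtonine. They are the 4 genes named Fst or with a symbol starting Igfbp among the 1908 genes that carry a symbol in the authors' 3 comparison tables, each with 1 probe set of the 41345 on the array. A symbol is given there only to a probe set that the authors listed as changed in at least 1 comparison, so these genes were chosen by their fold and adjusted p between groups. All listed folds are at least 1.5 and all listed p-values are under 0.05. The differences below are therefore a description. RefSeq names 8 mouse genes with a symbol starting Igfbp, and Igfbp1, Igfbp2, Igfbp5, Igfbp7 and Igfbpl1 were not analysed here.

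Follistatin is a secreted protein that binds activins, ligands of the TGF-beta family, and keeps them from their receptors. The IGF binding proteins hold the growth factors IGF-1 and IGF-2 in blood and tissue fluid, and either keep them from the IGF receptor or release them when proteases cut the binding protein. Activin and IGF-1 both act on fibroblasts and epithelium, and their signals have long been studied in the scarring lung.

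RNA was from lungs of male C57BL/6J mice aged 11 weeks, 3 arrays per group and 9 in all. The study asked how lung gene expression differs between stages of fibrosis, by comparing bleomycin with vehicle, and bleomycin plus homoharringtonine with each. Mice of 8 weeks had received bleomycin, a DNA-breaking antibiotic that scars the rodent lung, at 2 U/kg through the trachea, or saline (PBS). From day 5 they were injected in the peritoneum 2 times a week for 15 days with homoharringtonine (HHT), a plant alkaloid that blocks translation elongation, at 0.545 mg/kg, or with its vehicle. The groups were vehicle-treated mice, mice instilled with bleomycin, and mice instilled with bleomycin and given HHT; no group received HHT without bleomycin, and the labels do not say of each mouse given bleomycin alone that it was injected with vehicle. Bleomycin injury in the mouse is an acute model.

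Values are log2 signals, so a difference of 1 is a 2-fold change, and array medians lay between 4.49 and 4.57. Precision is limited by the 3 arrays in each group. The labels do not say outright that each array holds a different mouse, and errors here measure the spread between these arrays. Within groups, the SD of the 4 genes was 0.24 to 0.33, above the median of 0.18 over all probe sets. In whole lung, fewer cells of a type and less RNA per cell cannot be told apart.

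The 4 genes fell into 3 orders of the groups. Fst and Igfbp4 were lowest in vehicle lungs, higher with bleomycin plus HHT and highest with bleomycin alone. Igfbp6 ran the other way, highest in vehicle and lowest with bleomycin alone. Igfbp3 was highest in vehicle, lower with bleomycin and lowest with HHT. For each of the 4, the arrays of the 3 groups formed separate ranges, although some gaps between ranges were small. Over all probe sets, 1.19% had the order of Fst and Igfbp4, 1.47% that of Igfbp6, and 0.191% that of Igfbp3, each with no overlap between groups. The members were picked for such differences, and nothing is read from these shares.

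**Figure D1:**
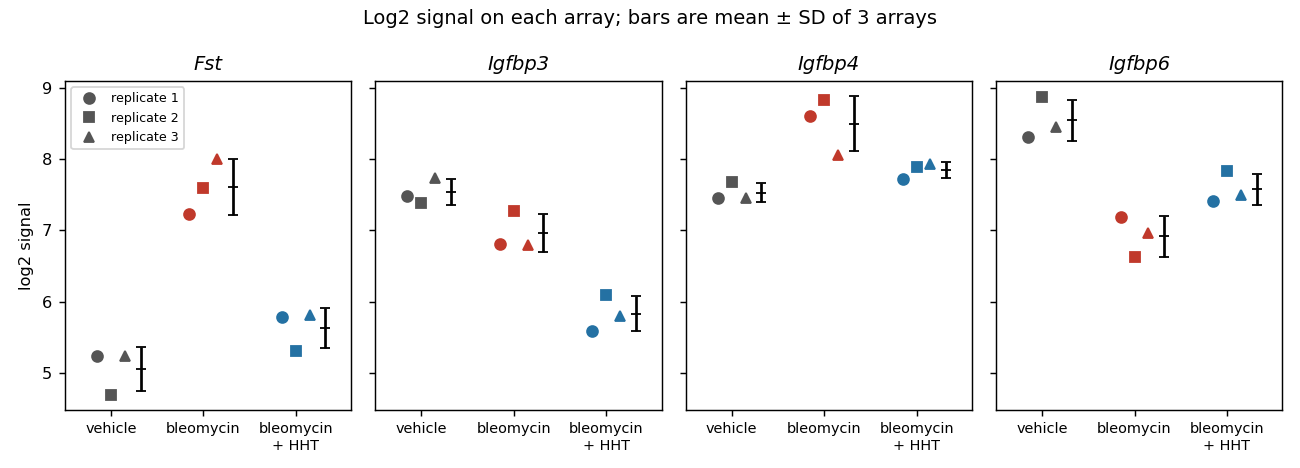
Log2 signal of Fst, Igfbp3, Igfbp4 and Igfbp6 (vertical axis) on each of the 9 arrays by group, with the mean and SD of 3 arrays as bars. Fst lies between 7.23 and 8.01 with bleomycin and below 5.9 on every other array, while Igfbp3 is highest in vehicle and lowest with HHT.

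Promoter sequence is shown for the 3 binding protein genes, because these relatives had 3 different orders of the groups. The 250 bases before an annotated start of each gene are from RefSeq, build GRCm38.p6, 5′ to 3′ on the strand of the gene. Capitals mark the motifs found. The core of the TATA element was searched as TATAAA, that of the NF-Y site as CCAAT and that of the Sp1 site as GGGCGG, each on both strands, and no matches overlapped. The windows of Igfbp3 and Igfbp4 lie inside the full RefSeq span of their genes, so the starts used for them are not the outermost.
Igfbp3 (chr11:7213924-7214173, minus strand): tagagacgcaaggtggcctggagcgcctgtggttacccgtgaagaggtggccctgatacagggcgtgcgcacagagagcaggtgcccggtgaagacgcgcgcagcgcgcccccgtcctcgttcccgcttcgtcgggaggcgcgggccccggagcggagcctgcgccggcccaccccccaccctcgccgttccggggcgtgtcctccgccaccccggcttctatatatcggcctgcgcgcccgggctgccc
Igfbp4 (chr11:99040994-99041243, plus strand): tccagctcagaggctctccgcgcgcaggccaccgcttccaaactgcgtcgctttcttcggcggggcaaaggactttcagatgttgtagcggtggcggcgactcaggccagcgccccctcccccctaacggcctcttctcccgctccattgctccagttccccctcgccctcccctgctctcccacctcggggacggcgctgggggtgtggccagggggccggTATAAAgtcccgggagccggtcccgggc
Igfbp6 (chr15:102143936-102144185, plus strand): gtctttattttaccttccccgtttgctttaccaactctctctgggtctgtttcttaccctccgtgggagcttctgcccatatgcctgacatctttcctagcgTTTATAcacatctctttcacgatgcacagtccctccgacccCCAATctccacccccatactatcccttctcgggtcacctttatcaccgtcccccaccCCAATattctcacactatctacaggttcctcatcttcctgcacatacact
The Igfbp3 and Igfbp4 windows were rich in G and C, at 73.2% and 69.2%, with 32 and 22 CG dinucleotides. The Igfbp6 window held 49.6% and 7 CG dinucleotides, against a median of 52.4% G and C over the 32851 promoters of the table. TATAAA starts 28 bases before the start used for Igfbp4. On the opposite strand it is found 148 bases before that used for Igfbp6. The Igfbp6 window also holds CCAAT on the strand of the gene, 107 and 50 bases before that start. Igfbp3 holds no exact match to the 3 motifs, and GGGCGG is in none of these windows. The Igfbp3 window does hold the TATA-like letters tatatat near its 3′ end, which a search for TATAAA does not count. Of all promoters 12.4% hold TATAAA, 33.8% CCAAT and 32.7% GGGCGG. These matches are a description of the letters, and the arrays do not measure promoter activity.

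Fst (gene 14313, chromosome 13 from 114452262 to 114458951 on the minus strand by the authors' table, which names no genome build) is measured by 22 probes. The vehicle arrays read 5.23, 4.69 and 5.24. The bleomycin arrays read 7.23, 7.60 and 8.01, all far above. The arrays with HHT read 5.78, 5.31 and 5.81, and the lowest of them lay only 0.08 above the highest vehicle array. The vehicle mean of 5.05 ± 0.31 (SD, n = 3) stood at the 59.7th percentile of all probe sets and the bleomycin mean of 7.61 ± 0.39 (SD, n = 3) at the 92.6th, so the gene went from near the middle of the array to its bright end.

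In log2 terms Fst was 2.56 higher with bleomycin than with vehicle (SE 0.24), which is 5.9-fold. With HHT it was lower than with bleomycin alone, by -1.98 (SE 0.24), or 3.95-fold. The mean with HHT, 5.63 ± 0.28 (SD, n = 3), remained 0.58 above vehicle, with a 95% interval of 0.04 to 1.12. The authors' deposited table for bleomycin against vehicle lists Fst with a fold of 5.9 and an adjusted p of 0 as written there, and their deposited table for HHT against bleomycin with a fold of -3.95 and an adjusted p of 6.09e-06. Fst is not in the authors' deposited table for HHT against vehicle, where the fold from these arrays was 1.493 and the smallest listed fold is 1.551.

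Igfbp4 (gene 16010, chromosome 11 from 99041244 to 99052655, plus strand, 24 probes) codes for a binding protein that mostly restrains IGF, and that the protease pappalysin (Pappa) cuts. Its vehicle arrays read 7.46, 7.68 and 7.45, and the bleomycin arrays 8.61, 8.83 and 8.06. With HHT the arrays read 7.72, 7.89 and 7.93. Bleomycin replicate 3 was the lowest of its group for Igfbp4, 0.13 above the highest HHT array, although the same array was the highest of its group for Fst.

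Igfbp4 was 0.98 higher with bleomycin than with vehicle (SE 0.19), or 1.97-fold. The difference between HHT and bleomycin was -0.66 (SE 0.19). HHT and vehicle lungs differed by 0.32, with a 95% interval of -0.10 to 0.74 that includes no difference, and their ranges were 0.04 apart. The authors' deposited table lists Igfbp4 for bleomycin against vehicle only, with a fold of 1.97 and an adjusted p of 1.5e-06.

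Igfbp6 (gene 16012, chromosome 15 from 102144186 to 102149512, plus strand, 25 probes) codes for the binding protein that prefers IGF-2 over IGF-1. The vehicle arrays read 8.32, 8.87 and 8.46. The bleomycin arrays read 7.19, 6.62 and 6.97, all more than 1 unit below the lowest vehicle array. The arrays with HHT read 7.41, 7.83 and 7.50 and lay between these groups.

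With bleomycin, Igfbp6 differed from vehicle by -1.63 (SE 0.20), which is 3.09-fold lower. It was 0.65 higher with HHT than with bleomycin alone (SE 0.20), or 1.57-fold. Against vehicle the HHT arrays were still lower, by -0.97 (SE 0.20), or 1.96-fold. The authors' deposited tables list it with a fold of -3.09 and an adjusted p of 2.04e-10 for bleomycin against vehicle. For HHT against vehicle they give a fold of -1.96 and an adjusted p of 0.049987, the largest p in that deposited table and so the value just inside its limit.

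Igfbp3 (gene 16009, chromosome 11 from 7206086 to 7213923, minus strand, 22 probes) codes for the main carrier of IGF in the blood. Its vehicle arrays read 7.49, 7.39 and 7.74. The bleomycin arrays read 6.81, 7.27 and 6.80, and bleomycin replicate 2 came within 0.12 of the lowest vehicle array. With HHT the arrays read 5.59, 6.09 and 5.80, and the highest of these was 0.71 below the lowest bleomycin array.

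Igfbp3 thus differed from Fst, Igfbp4 and Igfbp6 in the place of the HHT group, which lay outside the span of the other groups and not between them. The HHT group was lower than bleomycin by -1.13 (SE 0.18), or 2.19-fold, and lower than vehicle by -1.71 (SE 0.18), or 3.28-fold. The difference between bleomycin and vehicle was -0.58 (SE 0.18), with a 95% interval of -0.98 to -0.18. The authors' deposited table lists Igfbp3 for HHT against vehicle, with a fold of -3.28 and an adjusted p of 3.56e-06. It is not in their deposited table for bleomycin against vehicle, where the fold from these arrays was 1.496 and the smallest listed fold is 1.5. Nor is Igfbp3 in their deposited table for HHT against bleomycin, although the smallest fold listed there, 1.594, is below its 2.19. The 3 comparisons share arrays in pairs, so the values of a gene in them are not independent.

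**Figure D2:**
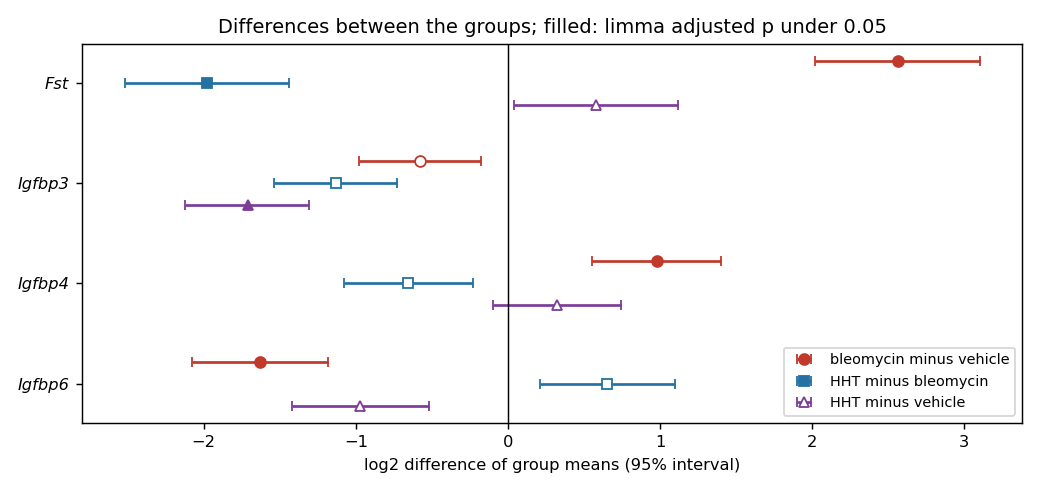
Difference of group means in log2 units (horizontal axis) for each gene in the 3 comparisons, with 95% intervals, and filled symbols where limma gave an adjusted p under 0.05. Igfbp3 has all 3 differences below 0, and the other genes have the HHT minus bleomycin difference opposite in sign to bleomycin minus vehicle.

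A limma fit over all probe sets, adjusted by Benjamini-Hochberg, called 3 of the 4 genes for bleomycin against vehicle, where it called 7.78% of all probe sets. They were Fst, Igfbp4 and Igfbp6. For HHT against bleomycin it called Fst, 1 of 4, against 0.0943% of all probe sets. For HHT against vehicle it called Igfbp3, 1 of 4, against 0.506%. In all comparisons the arrays of the groups did not overlap for 4 of 4 genes, as was the case for 28%, 14% and 21.1% of all probe sets in the same order. The authors' deposited tables list 3 of the 4 for bleomycin against vehicle, 1 for HHT against bleomycin and 2 for HHT against vehicle, and they list 5.02%, 0.281% and 0.711% of all probe sets. These contrasts chose the genes, and nothing is read from the counts. Igfbp6 for HHT against vehicle was listed by the authors and was not called by limma, and no gene went the other way.

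Some of these calls were lost when 1 array was left out. The call of Fst for HHT against bleomycin was kept without bleomycin replicate 1, with a difference of -2.17. It was lost without any 1 of the other 8 arrays, with differences from -2.07 to -1.79. Vehicle arrays are not part of this contrast. Without any 1 of them the Fst difference stayed at -1.98, and limma called 0 probe sets in all. The call of Igfbp4 for bleomycin against vehicle was lost without vehicle replicate 1 (0.94), vehicle replicate 3 (0.93) or bleomycin replicate 2 (0.81). The call of Igfbp3 for HHT against vehicle was lost without vehicle replicate 2 (-1.79), vehicle replicate 3 (-1.61) or HHT replicate 3 (-1.70). The calls of Fst and Igfbp6 for bleomycin against vehicle were kept in all 9 such fits.

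Of 20 genes on a list drawn up around the IGF pathway, which need not all be members of it, 4 carry a symbol in the authors' tables. The ligand Igf1 had vehicle values of 5.47, 5.65 and 5.59, bleomycin values of 7.19, 6.65 and 6.38, and HHT values of 6.94, 6.09 and 6.89. It was 1.17 higher with bleomycin than with vehicle (SE 0.26), and HHT and bleomycin arrays overlapped, with a difference of -0.10 (SE 0.26). Its mean with HHT was 1.07 above vehicle (SE 0.26). For HHT against bleomycin, beside the -0.10 of Igf1, Igfbp3 differed by -1.13, Igfbp4 by -0.66 and Igfbp6 by 0.65. The difference between these genes was not tested.

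Pappa, the protease that cuts Igfbp4, read 4.95, 5.06 and 4.77 in vehicle lungs, and 6.06, 6.84 and 6.57 with bleomycin. With HHT it read 5.09, 5.34 and 5.42, close above vehicle. Its differences were 1.56 for bleomycin against vehicle (SE 0.20) and -1.21 for HHT against bleomycin (SE 0.20), so it had the group order of Igfbp4 and Fst. The secreted metalloproteinase Adamts12 was 1.34 higher with bleomycin (SE 0.17), and the difference of HHT from bleomycin was -1.03 (SE 0.17). Grb14, an adaptor that inhibits the insulin receptor, differed by -1.20 with bleomycin (SE 0.11) and by -0.95 with HHT against vehicle (SE 0.11).

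For bleomycin against vehicle, limma called Igf1, Pappa and Adamts12 higher and Grb14 lower, where it called 3.37% of all probe sets higher and 4.42% lower. The list had a median of 1.25 beside 0.02 over all probe sets and -0.67 over all listed probe sets with a symbol. For HHT against bleomycin limma called 0 of the 4, and the authors' deposited table lists Pappa. The shares of all probe sets that limma called there were 0.0387% higher and 0.0556% lower. At an unadjusted p under 0.05 there were 1 higher and 2 lower, beside 4609 of all 41345 probe sets in either direction. For HHT against vehicle limma called Grb14 lower, beside 0.193% of all probe sets higher and 0.312% lower. The authors' deposited table lists Grb14 and also Igf1 there, and limma did not call Igf1. These genes too carry a name because they were listed on these arrays, and their counts are no independent evidence.

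Of 49 genes of the activin and BMP pathways, 10 carry a symbol. Inhba, the activin subunit whose product follistatin binds, was dim in vehicle lungs at 4.42, 4.01 and 3.68, near or below the array median. It read 5.08, 6.03 and 5.86 with bleomycin and 4.78, 4.93 and 5.37 with HHT, and these groups overlapped. Its difference was 1.62 for bleomycin against vehicle (SE 0.29) and -0.62 for HHT against bleomycin (SE 0.29). The 95% interval of the latter, from -1.27 to 0.02, includes no difference.

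Among relatives of follistatin, Fstl1, a secreted glycoprotein, varied little within groups. It read 6.50, 6.55 and 6.46 in vehicle, 7.95, 7.93 and 7.94 with bleomycin, and 7.39, 7.10 and 7.38 with HHT. It rose by 1.44 with bleomycin (SE 0.10) and was still 0.78 above vehicle with HHT (SE 0.10), where limma called it too. Fstl3, another binder of activin, was 0.65 higher with bleomycin (SE 0.22). The authors' deposited table lists it there, and limma did not call it.

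The BMP antagonists went both ways. Grem1 was 2.36 higher with bleomycin than with vehicle (SE 0.54) over widely spread bleomycin values of 7.03, 7.84 and 5.40. Chrdl1, also an antagonist, differed by -1.04 (SE 0.23). The ligand Bmp6 fell by 1.84 with bleomycin (SE 0.23) and the inhibitory signal protein Smad6 by 1.57 (SE 0.21). The receptors Acvrl1 and Bmpr2 and the co-receptor endoglin (Eng), all prominent in endothelium, fell by 1.29 (SE 0.11), 0.89 (SE 0.16) and 1.49 (SE 0.23). In all limma called 3 of the 10 higher and 6 lower with bleomycin, where it called 3.37% of all probe sets higher and 4.42% lower. The median of the 10 was -0.97, beside -0.67 over listed probe sets with a symbol and 0.02 over all probe sets. For HHT against bleomycin limma called 0 of 10, beside 0.0387% of all probe sets higher and 0.0556% lower, and the authors' deposited table lists Grem1. At an unadjusted p under 0.05 there were 3 higher and 2 lower, beside 4609 of all 41345 probe sets in either direction. For HHT against vehicle limma called Fstl1 higher and Acvrl1 lower, beside 0.193% of all probe sets higher and 0.312% lower. At an unadjusted p under 0.05 there were 2 higher and 6 lower, beside 6621 of all 41345 probe sets in either direction. The authors' deposited table lists Bmp6, Eng and Smad6 there, all lower, and neither Fstl1 nor Acvrl1.

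The CCN proteins carry a domain like that of the IGF binding proteins, and 3 of their 10 listed symbols, which include synonyms, were present. Ctgf, a matrix protein that TGF-beta induces, was 2.20 higher with bleomycin (SE 0.17) and 1.31 higher with HHT than with vehicle (SE 0.17). Cyr61 and Wisp1 were 1.16 (SE 0.29) and 0.86 (SE 0.18) higher with bleomycin. Limma called all 3 higher for bleomycin against vehicle, where it called 3.37% of all probe sets higher, and Ctgf for HHT against vehicle, where it called 0.193% higher. They too carry a name because they were listed as changed on these arrays. For HHT against bleomycin limma called 0 of 3, beside 0.0943% of all probe sets, and the authors' deposited table lists none of them. At an unadjusted p under 0.05 there were 2 lower, beside 4609 of all 41345 probe sets in either direction.

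**Figure D3:**
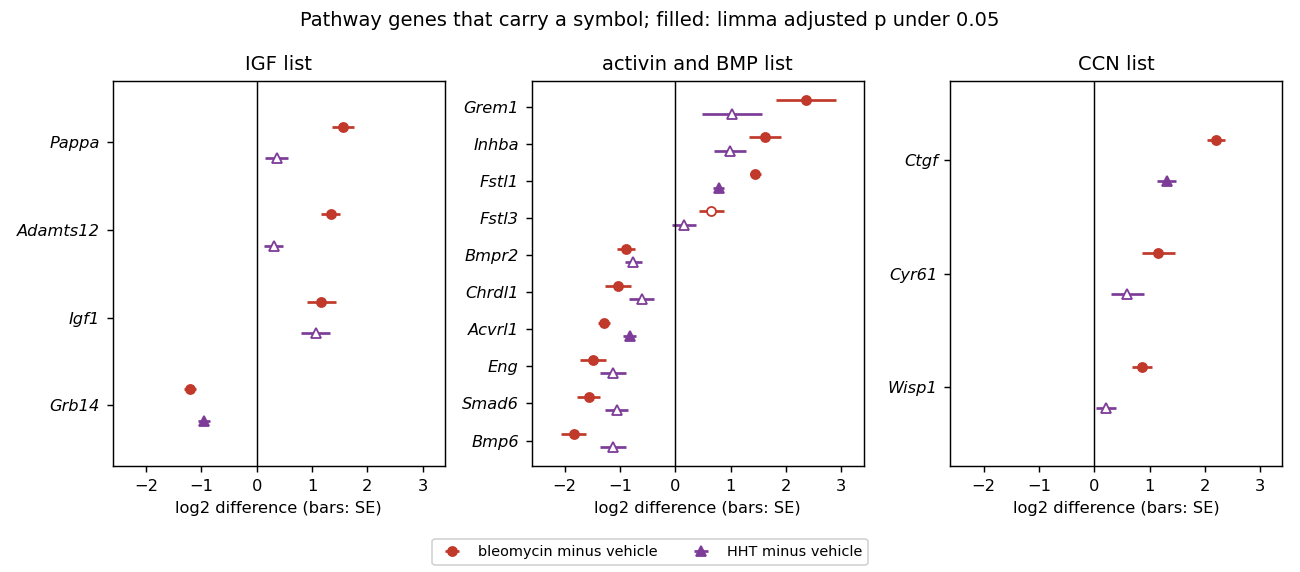
Log2 difference from vehicle (horizontal axis, bars are SE) of genes with a symbol on the IGF, activin and BMP, and CCN lists. Bleomycin and HHT are both shown, with filled symbols where limma gave an adjusted p under 0.05. Igf1 has nearly the same difference in both groups (1.17 and 1.07), although only that of bleomycin is filled, whereas Pappa goes from 1.56 to 0.36.

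The genes nearest to each of the 4 in their values over the 9 arrays were found among 1477 genes with a symbol, by the root-mean-square difference of the log2 values after each gene was centred on its mean. For Fst these were the collagen cross-linking enzyme Lox (0.267), the protease inhibitor Serpina3m (0.282) and Ms4a4a (0.333). Lox had group means of 6.79, 9.57 and 7.62 in vehicle, bleomycin and HHT lungs, so it was 2.78 higher with bleomycin where Fst was 2.56 higher. The nearest to Igfbp4 were Ncf1, a subunit of the phagocyte oxidase (0.144), the DNA polymerase gene Poln (0.149) and the acute-phase gene Orm1 (0.150). Those nearest to Igfbp6 were Nrn1 (0.179), Tmtc2 (0.193) and the vascular peptide gene Apln (0.194).

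For Igfbp3 the nearest were Cth, an enzyme of cysteine synthesis (0.245), the endothelial lipase gene Lipg (0.302) and the clock gene Arntl (0.371). Cth had group means of 5.30, 4.94 and 3.87, and Lipg of 6.62, 6.22 and 5.42. Arntl had the same order with a larger difference between bleomycin and vehicle, -1.37 beside -0.58 for Igfbp3. The nearest genes were picked for their likeness on these same arrays, so a shared order follows from the choice.

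**Figure D4:**
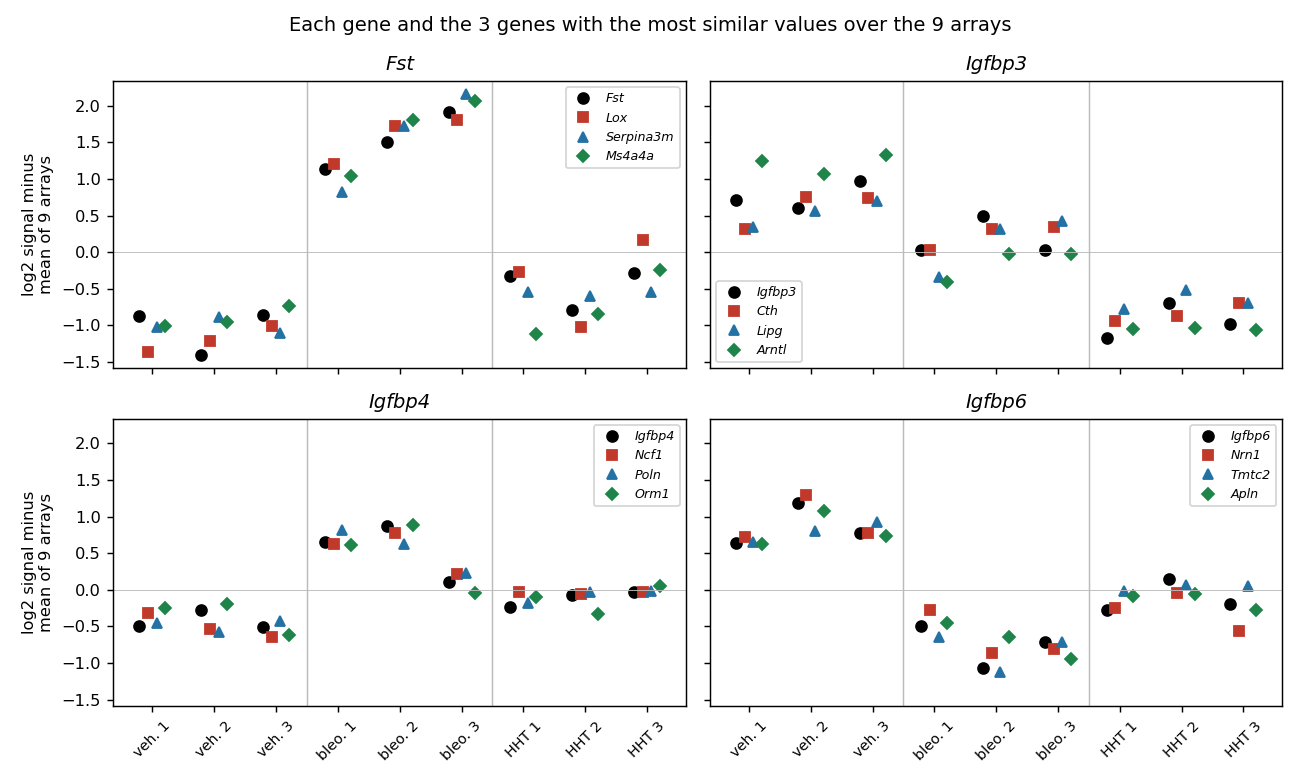
Log2 signal minus the mean of the 9 arrays (vertical axis) for each gene and the 3 genes closest to it, by array. The arrays of Fst and its neighbours are high with bleomycin alone, and those of Igfbp3 and its neighbours are lowest with HHT. The neighbours were picked for this likeness.

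Markers of cell types moved with the groups too. The mean log2 signal of 9 macrophage markers of a list of 10 ran from 6.30 to 6.38 in vehicle, 8.37 to 8.91 with bleomycin and 7.50 to 8.02 with HHT, the group order of Fst and Igfbp4. That of 3 of 6 markers of myofibroblasts and smooth muscle ran from 6.73 to 6.94, 7.60 to 8.09 and 6.93 to 7.07, so it was highest with bleomycin while vehicle and HHT arrays overlapped. The 7 of 10 fibroblast markers ranged from 8.10 to 8.27, 8.29 to 8.74 and 8.29 to 8.55, with bleomycin and HHT arrays overlapping. Members of this list went opposite ways with bleomycin: limma called the collagen genes Col1a1 (2.36), Col1a2 (1.63) and Col3a1 (1.40) higher, and Inmt (-1.63), Tcf21 (-1.38) and Npnt (-0.96) lower.

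The 9 of 11 endothelial markers ran from 8.46 to 8.52 in vehicle, 6.94 to 7.38 with bleomycin and 7.37 to 7.82 with HHT, where 1 HHT array lay just below the highest bleomycin array. The 5 of 8 markers of type 2 alveolar epithelium ran from 9.92 to 10.08, 8.51 to 9.21 and 9.40 to 9.90, so both lists had their lowest arrays with bleomycin, as Igfbp6 did. Glucocorticoid-inducible genes, 9 of 9 named, ran from 6.09 to 6.33, 8.00 to 8.26 and 6.76 to 6.84, again the order of Fst and Igfbp4.

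Most of the other lists had an order of these kinds too. The 4 of 5 lymphocyte markers ran from 5.78 to 6.31 in vehicle, 3.91 to 4.12 with bleomycin and 4.65 to 5.04 with HHT. The 2 of 7 markers of type 1 alveolar epithelium ran from 9.46 to 9.52, 7.65 to 8.26 and 8.50 to 8.94. The 2 of 3 club cell markers ran from 10.62 to 10.88, 9.10 to 9.54 and 9.76 to 10.27, so these lists had the order of Igfbp6 with no overlap. The 3 of 5 markers of transitional epithelium had the order of Fst, with 6.52 to 6.77, 8.09 to 8.70 and 7.34 to 7.57. For 2 of 4 ciliated cell markers (6.31 to 6.74, 5.47 to 5.78 and 5.71 to 6.31) the bleomycin and HHT arrays overlapped, and for 2 of 4 mesothelial markers (6.77 to 7.72, 7.09 to 7.93 and 7.23 to 8.01) all groups did. None of these lists had all its HHT arrays below those of both other groups, as Igfbp3 did. The means cover only markers that the authors listed as changed, and a mean can hide members going opposite ways. The part of cell makeup or of these genes in the results was not tested. Among markers of lung epithelium, those of type 1 and type 2 alveolar epithelium and club cells were bright in vehicle lungs. Those of ciliated cells and transitional epithelium were dimmer. The labels give the tissue as lung.

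**Figure D5:**
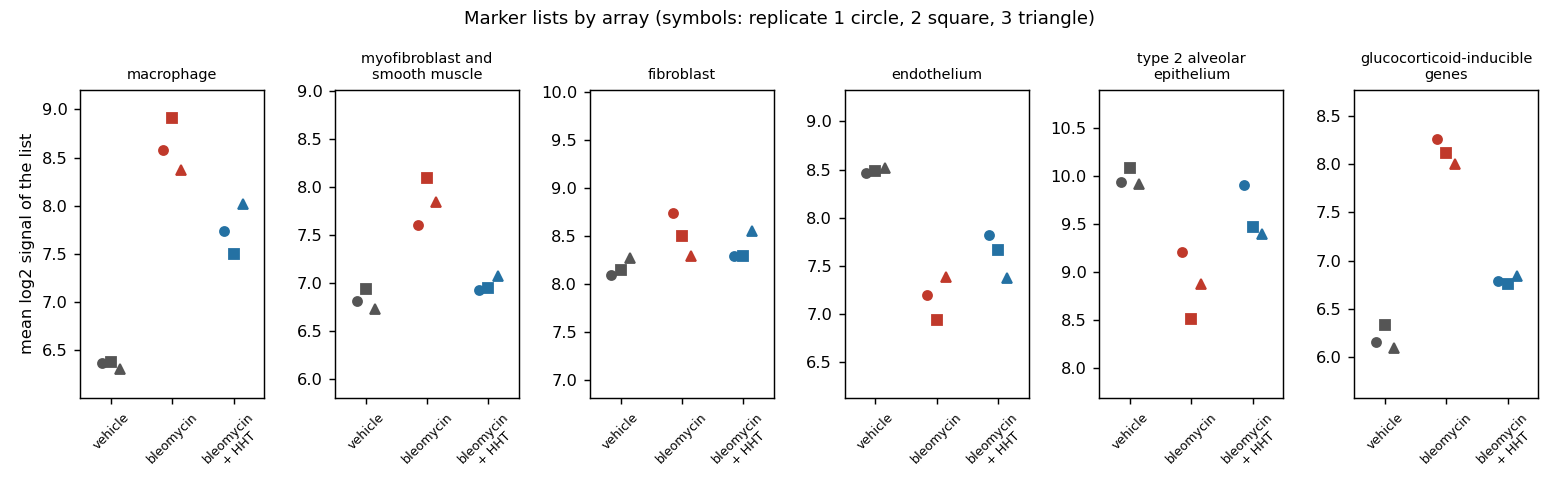
Mean log2 signal of the markers with a symbol in each of 6 lists (vertical axis, each panel spanning the same number of units) on each array. Macrophage, myofibroblast and glucocorticoid-inducible genes are highest with bleomycin alone, and endothelial and type 2 epithelial markers are highest in vehicle lungs.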

How the data were processed

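Lung RNA was hybridised to 9 Affymetrix arrays, 3 per group, with Affymetrix Power Tools and R 3.5.1 named per the submitters' processing notes; how the signals were normalized is not stated there. The authors' value table holds log2 signals of 41345 probe sets from 0.91 to 13.68, already on a common scale, and of 14904 values also printed in their comparison tables, 0 differed by over 1e-06. Per the file headers, those deposited tables give a signed fold, a score (the statistic of an LPE test, which pools error over genes of like signal) and an adjusted p-value for listed probe sets only. Gene names come from these tables, 2010 probe sets or 4.86% of the array.

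Group means were fitted to all 9 arrays with limma 3.58.1 in R 4.3.3 (6 residual degrees of freedom, prior of 2.661), 2-sided, with Benjamini-Hochberg adjustment over all probe sets at a threshold of 0.05. Differences, SE and 95% intervals are from this fit, and folds are the antilog of the size of the difference. No limma p-value of the 4 genes is printed, since the contrasts chose them, and the p-values shown for them are those of the authors' deposited tables; an exact test of 3 against 3 arrays cannot go below 0.1. Tested on simulated data of 41345 probe sets with 200 changed by a log2 difference of 2, the fit recovered 92%, 90.5% and 94.5% in the comparisons of bleomycin with vehicle, HHT with bleomycin and HHT with vehicle. With a difference of 1 it recovered 58.5%, 57.5% and 61.5%, and with 0.5 it recovered 0% in each. On the arrays 3218 probe sets were called for bleomycin against vehicle, many more than 200, so these shares need not hold there. False calls are not given here. The text names the 4 genes, all genes of 3 fixed pathway lists that carry a symbol (1 gene of the lists is not reported here and is left out of their counts), and for each of the 4 the 3 genes closest in their values, leaving out predicted, small RNA, receptor and immunoglobulin segment genes. The genes, lists and tests were chosen with earlier results of these data known. Probe set spans lie inside the RefSeq GRCm38.p6 span of the same gene for 4 of 4. Fst has no sequence shown. No 2 arrays held identical values (0 pairs). Alternatives were 2-group fits, another prior, array weights, 2 scalings, a filter on dim probe sets, a replicate block and leaving out each array.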

Additional observations from a re-analysis of the deposited data

How the results depend on the processing

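The 4 genes in 3 comparisons gave 192 differences over 16 alternatives each. All 192 stayed within 1 within-group SD of the value reported, and 0 called differences changed sign. Most of this outcome was fixed in advance. The difference of group means is the same by construction with only the 6 arrays compared, another prior, the dim filter or the replicate block. With 3 arrays per group, leaving out 1 array cannot move it by over 1 within-group SD, pooled over groups. Only array weights and the scalings could have moved a difference further, so little is read from this count. For HHT against bleomycin, the call of Fst was lost with only the 6 arrays of these groups, with array weights and with the replicate block (0 of the 4 genes each, and 4 of 4 at an unadjusted p under 0.05). The count of called probe sets, 39, was then 0, 16 and 0 (3817, 4169 and 4410 at an unadjusted p under 0.05), and 69 without dim probe sets. For HHT against vehicle 209 probe sets were called, 385 with array weights, 358 without dim probe sets and 22 with the replicate block.

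Leaving out 1 array gave 1136 to 3396 calls for bleomycin against vehicle (3218 with all arrays), 0 to 181 for HHT against bleomycin and 7 to 257 for HHT against vehicle. The 4 genes then had 2 to 3, 0 to 1 and 0 to 1 calls. The cause of these changes was not tested, though fewer arrays leave fewer degrees of freedom. The labels give replicate numbers 1 to 3 in each group without saying what they share. Deviations of equal numbers correlated from -0.1374 to 0.0934, and in 7 of 18 cases the best match of an array in another group had its number, so the numbers were not taken as pairs. With the replicate block 2175 probe sets were called for bleomycin against vehicle.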
